A study of Rattus norvegicus with 20 samples.

Results

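Of the 3230 rows of the count table whose biotype was lincRNA, antisense, processed_transcript or lncRNA, 123 had a count of at least 10 in at least 10 of the 20 libraries of rat gastrocnemius muscle, and these expressed long noncoding RNA rows are described here among the 32495 named rows in all. The lincRNA biotype gave 83 of them, processed_transcript 35 and antisense 5, while no row carried the biotype lncRNA. All samples came from female Fischer 344 rats bearing the Ward colorectal carcinoma, aged 11 to 12 in a unit not given in the sources used here. TUMOUR STD (5 libraries) ate the standard diet and received no chemotherapy. CHEMO STD (7 libraries) ate the same diet and received 2 cycles of CPT-11, a topoisomerase I inhibitor, each followed the next day by 50 mg/kg of 5-FU, an antimetabolite. CHEMO FO (8 libraries) received the same cycles and was switched to a diet with fish oil, which supplies EPA and DHA, when chemotherapy began. The tumour had grown for 2 weeks before chemotherapy, and muscle was taken 7 days after the last cycle. No group without a tumour was analysed here.

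Long noncoding RNAs are transcripts with no recognised open reading frame that cells splice, cap and often polyadenylate like messenger RNAs. Some act on chromatin or on transcription near the place where they are made, others scaffold proteins or bind small RNAs, and for most the function is not known. Antisense transcripts run across a coding gene on its opposite strand, and the processed_transcript biotype collects spliced transcripts of a locus that have no open reading frame assigned. In skeletal muscle, such RNAs are known to take part in myoblast differentiation and in the response to atrophy.

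CHEMO STD 1 and 2 differed by about the sampling noise over these rows (chi-square per row 1.41, against 2.73 to 256 in the 58 other pairs within a group) and were summed and counted as 1 sample, so that CHEMO STD had 6 samples. Counts per library ranged from 3020821 to 10857477, and 75 to 122 of the 123 rows reached 10 counts in a library. By group, the median depth was 6200550 counts in TUMOUR STD, 4944773 in CHEMO STD and 4634605.5 in CHEMO FO. The median number of rows that reached 10 counts was 114, 114 and 98 in the same order. The muscle markers Myh4, Acta1, Ckm and Tnnt3 summed to at least 110730 CPM (counts scaled to library size) in every sample. Some samples stood apart in markers of other cells, which whole muscle holds in varying amounts. TUMOUR STD 10 had 176 CPM of the desmosome gene Dsp (group median 4.77), CHEMO STD 7 had 145 CPM of the leukocyte markers (19.5), and CHEMO FO 18 had 728 CPM of the macrophage markers (263) with the lowest sum of fast fibre markers. TUMOUR STD 10 and CHEMO STD 1+2 were highest of their groups in the tendon and myelin markers. In whole muscle, fewer cells of a type and less RNA per cell cannot be told apart. The labels number the samples of each group without naming the animals, and p-values measure only the spread between these samples, which may in part be technical.

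The rows were chosen by their raw counts in all libraries, without regard to group, and 58 rows reached 10 counts in all 20 libraries. At its edge, 5 rows had exactly 10 such libraries, among them AABR07016572.1 with 187 counts in all and AABR07030527.1 with 264. In all 5, CHEMO STD 1 and 2 both reached 10 counts, so these rows fall short of the rule where the pair counts as 1 sample. The called rows AABR07030527.1 and AABR07010777.1 are among the 5 and would leave the set. Just outside, with 9 libraries, lay AABR07058158.1 (269 counts), AABR07044980.1 (230), AABR07021547.1 (219), AABR07070312.1 (217) and LOC102556085 (200). In 13 rows most libraries of some group stayed under 10 counts, most often those of CHEMO FO (9 rows), and 3 called rows are among them (AABR07030527.1, AABR07069454.1 and AABR07010777.1). These 3 entered the set mainly through groups where they were higher, so the rule favours their differences, which are descriptions. The rule takes raw counts, and median depth was lowest in CHEMO FO. The part of depth in how many libraries of a group reached 10 counts was not tested. All 123 rows passed edgeR's filter on low counts, which left 11716 gene rows tested.

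The counts lay on few rows. Of 775267 counts on the 123 rows, AC134224.1, AC134224.2 and AC134224.3 held 55.8%, and the 6 rows with most counts held 75.1%. A row had between 183 and 189521 counts, with a median of 658. The 123 rows took 0.448% to 0.954% of a library's counts. The AC134224 rows accounted for most of that range, from 0.151% in TUMOUR STD 10 to 0.712% in CHEMO FO 18, while the other rows together took 0.232% to 0.307%. By group, the median share was 0.571% in TUMOUR STD (0.457% to 0.909%), 0.668% in CHEMO STD (0.494% to 0.801%) and 0.528% in CHEMO FO (0.448% to 0.954%), and the groups overlapped. Counts were not divided by transcript length, so levels are compared between samples and not between rows.

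**Figure D1:**
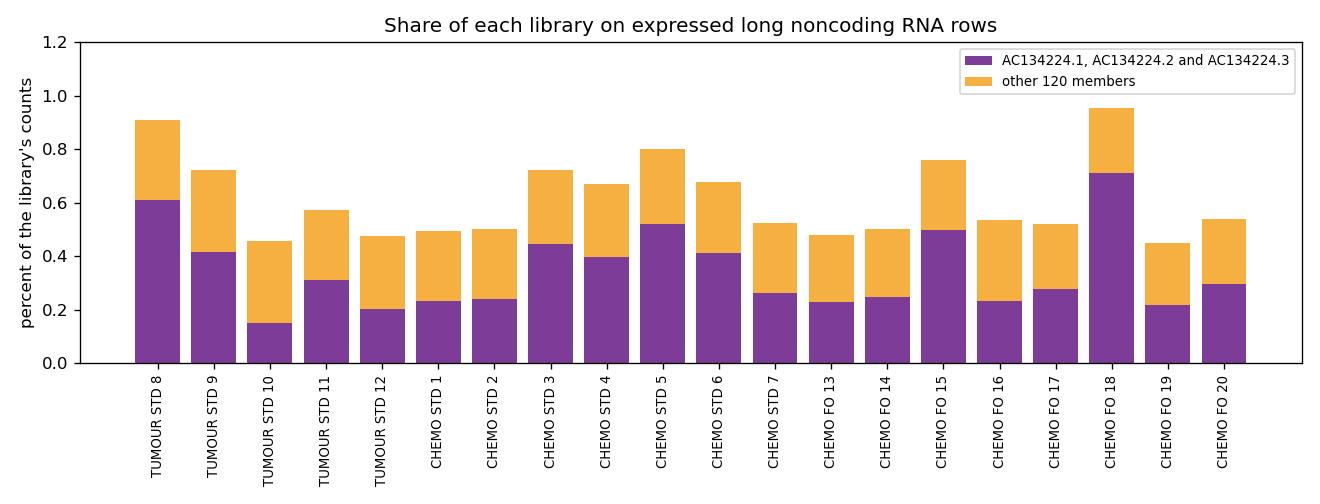
Percent of each library's counts on the 3 AC134224 rows and on the other 120 rows, stacked, for the 20 libraries. The AC134224 share runs from 0.151% to 0.712%, whereas the share of the other rows stays between 0.232% and 0.307%.

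The label was checked against RefSeq (GRCr8). By name, 84 rows are genomic clones, 20 carry a locus number and 19 a gene name. RefSeq knows 24 of the rows: 19 as protein-coding genes, 18 of them processed_transcript rows, and 5 as lncRNAs. The other 99 had no match. The label therefore held for 5 of the 24 rows that RefSeq classes, and the rest of the 24 are rows of coding genes in that annotation. The 19 coding genes took 13.1% of the counts on the 123 rows. Of 38 names of well-known lncRNAs on the fixed lists (snoRNA hosts, imprinted, nuclear, cytoplasmic and muscle RNAs), Sra1 and Tug1 are rows of the table and Tug1 alone was among the 123. The others were not analysed here.

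Tug1 is a nuclear and cytoplasmic RNA first described in the developing retina. Its level was 28.0, 22.1, 13.9, 26.2 and 17.7 CPM in TUMOUR STD. CHEMO STD ran from 15.2 to 32.1 (median 24.7) and CHEMO FO from 17 to 29.2 (median 21.0). The ranges overlapped throughout. Group means were 21.6 ± 5.84 (SD, n = 5), 23.7 ± 6.08 (SD, n = 6) and 22.0 ± 4.86 (SD, n = 8) CPM. The log2 fold change was 0.12 ± 0.21 (SE) for CHEMO STD versus TUMOUR STD, with a 95% interval from -0.31 to 0.55, and -0.07 ± 0.19 for CHEMO FO versus CHEMO STD, with an interval from -0.46 to 0.31. Both intervals lie within a 1.5-fold change, although the sign of the estimate turned in refits without single samples. Without TUMOUR STD 8 the first was 0.24, and without TUMOUR STD 10 it was -0.01. The second was 0.03 without CHEMO STD 5. CHEMO FO versus TUMOUR STD gave 0.05 ± 0.19, and -0.08 without TUMOUR STD 10. Smtn, the gene RefSeq places next to Tug1, had r = -0.60 with it over 19 samples with group means removed. Tug1 likewise ran against the tendon (r = -0.83), muscle (-0.72), myelin (-0.71) and smooth muscle markers (-0.54), whose part was not tested.

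The other RefSeq lncRNAs are LOC102552344, LOC102549726, LOC100909912 and LOC102550325. LOC102552344, which lies between the ubiquitin-conjugating enzyme genes Ube2e2 and Ube2e1, was the only one called in a comparison. LOC102550325, beside the ephrin gene Efna1, gave 29.6 ± 5.88 (SD, n = 5), 32.3 ± 1.83 (SD, n = 6) and 29.7 ± 9.64 (SD, n = 8) CPM in TUMOUR STD, CHEMO STD and CHEMO FO. LOC102549726, next to the heat shock gene Hspa1b, was at 13.2 CPM in CHEMO FO 18 and at 0.869 to 4.96 CPM in the other samples. Promoter windows are shown for Tug1, the well-known lncRNA among the rows, and LOC102552344, the one called. Each runs from 250 bases before the start to 50 after it, 5′ to 3′ on the strand of the gene, in GRCr8 (Tug1 chr14:82750485-82750784, minus strand, and LOC102552344 chr15:9806013-9806312, plus strand). The counts were made on Rnor 6. Capitals mark a match to one of 6 motifs sought on both strands, TATAAA (the TATA box), CCAAT (the box bound by NF-Y), GGGCGG (the GC box), TGACTCA (the site bound by Fos and Jun), CACGTG (the site bound by Myc and the clock factors) and CAGCTG (an E-box bound by myogenic factors).
Tug1: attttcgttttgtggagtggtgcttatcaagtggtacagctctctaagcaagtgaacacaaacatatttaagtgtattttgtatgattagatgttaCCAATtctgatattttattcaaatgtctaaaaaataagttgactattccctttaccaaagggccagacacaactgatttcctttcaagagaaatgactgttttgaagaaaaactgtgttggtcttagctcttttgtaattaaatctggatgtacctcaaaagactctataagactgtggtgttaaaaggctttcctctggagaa
LOC102552344: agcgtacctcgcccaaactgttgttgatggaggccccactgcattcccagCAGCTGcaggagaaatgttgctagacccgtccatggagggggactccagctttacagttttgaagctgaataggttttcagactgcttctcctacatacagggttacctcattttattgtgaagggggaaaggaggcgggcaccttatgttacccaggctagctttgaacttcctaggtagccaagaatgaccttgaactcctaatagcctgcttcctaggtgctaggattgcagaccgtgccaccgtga
The Tug1 window held CCAAT, 154 bases before the start, which 37.5% of all 33469 windows hold on either strand. LOC102552344 held CAGCTG, 200 bases before the start, which 15.1% of windows hold. No other motif of the 6 matched either window, and no matches overlapped. The Tug1 window had 34.0% G and C and 1 CpG, against medians of 51.7% and 7 over all windows. A match is a description of the letters.

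Among the rows that RefSeq classes as coding genes are Smg1, a kinase of nonsense-mediated decay, Snx3, an endosomal sorting nexin, Itgb5, an integrin subunit, and Rc3h1, an RNA-binding protein that promotes mRNA decay. Smg1 was at 160 ± 21.0 (SD, n = 5) CPM in TUMOUR STD, 158 ± 25.0 (SD, n = 6) in CHEMO STD and 173 ± 42.5 (SD, n = 8) in CHEMO FO. Snx3 was the steadiest of the 123 rows within groups, with a within-group SD of 0.18 on the log2 scale, and had 84.0 ± 12.2 (SD, n = 5), 90.2 ± 4.94 (SD, n = 6) and 94.0 ± 12.8 (SD, n = 8) CPM. AABR07064873.1, which RefSeq names Syne2 (a nuclear envelope spectrin-repeat protein), had 114 ± 15.8 (SD, n = 5), 106 ± 7.33 (SD, n = 6) and 96.3 ± 17 (SD, n = 8) CPM. Of these coding-gene rows only Rfwd3 was called in any comparison. Rc3h1 had an unadjusted p of 0.013 in edgeR's quasi-likelihood test of CHEMO FO versus TUMOUR STD, with a log2 fold change of 0.49 ± 0.18 (SE), under 1.5-fold. Whether the counted reads come from the coding or from the noncoding transcript of these genes cannot be told apart in gene counts.

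**Figure D2:**
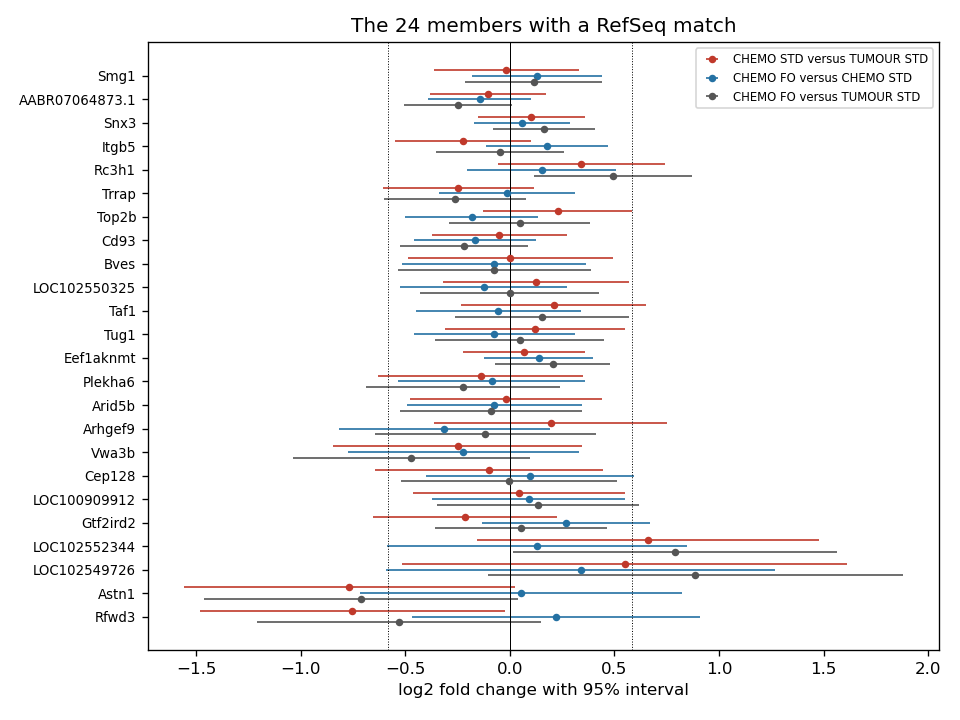
Log2 fold change with its 95% interval (x axis) of the 24 rows with a RefSeq match (y axis, most counts at the top) in the 3 comparisons, with dotted lines at 1.5-fold. Intervals widen towards the rows with few counts at the bottom, and Tug1 lies near 0 in all 3 comparisons.

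Comparisons were made with edgeR's quasi-likelihood test fitted to all 11716 gene rows and all 3 groups. Calls needed both a change of 1.5-fold or more and an unadjusted p under 0.05, and fold changes are log2 values with their SE. No row, among the 123 or all genes, passed a Benjamini-Hochberg adjusted p of 0.05 in edgeR in any comparison, so each call stands at the unadjusted level. The comparisons share samples: CHEMO STD is in the first and the second, CHEMO FO in the second and the third, and TUMOUR STD in the first and the third. Counts of rows called by DESeq2 or in refits have no share over all genes beside them. They describe how far calls depend on the processing and are no result about the 123 rows.

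The chemotherapy effect (CHEMO STD versus TUMOUR STD) had 5 of the 123 rows called, or 4.07% against 2.38% of all genes tested, with 2 higher and 3 lower against a background of 0.93% higher and 1.45% lower. AABR07045350.1 and AABR07030527.1, both antisense rows, were higher, and AABR07044049.1, Rfwd3 and AABR07068316.1 were lower. At an unadjusted p below 0.05 without a fold threshold there were 7 rows (5.69%), against 6.5% of all genes, and DESeq2 called 3, with none past its adjusted threshold. Library totals in place of TMM gave 3 higher and 1 lower. The count was 1 without TUMOUR STD 10, 2 without CHEMO STD 6, 3 without TUMOUR STD 8 or CHEMO STD 3, 4 or 7, and 9 without TUMOUR STD 11. A further refit left out TUMOUR STD 10, CHEMO STD 7 and CHEMO FO 18 together. Only these 3 are meant below by the samples high in a marker list. Others high in some list stayed in, such as CHEMO STD 1+2 (tendon markers, 1093 CPM, group median 398), CHEMO FO 20 (adipocyte markers, 328, median 93.3) and CHEMO FO 16 (Dsp, 34.6, median 2.87). Of the 5 calls, 2 were kept in that refit (AABR07030527.1 at 1.08 and Rfwd3 at -0.88), 3 were lost, and 2 other rows were called. The median log2 fold change of the 123 rows was 0.05, against -0.00 for all genes tested, and 75 rows lay above 0. The smallest adjusted p of a row was 0.719 in edgeR.

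AABR07044049.1 is a lincRNA row with 1168 counts and at least 20 in every library. It stood at 11.3, 12.0, 12.9, 9.38 and 13.7 CPM in TUMOUR STD, and in CHEMO STD at 6.12 to 9.31 (median 7.60). The groups did not overlap, as was true of 2 of the 123 rows (1.63%) and of 0.495% of all genes tested. CHEMO FO overlapped both, from 3.82 to 11.4 CPM (median 9.54). The mean fell from 11.9 ± 1.65 (SD, n = 5) to 7.70 ± 1.18 (SD, n = 6), a log2 fold change of -0.61 ± 0.22 (unadjusted p = 0.00991, adjusted p = 0.719 in edgeR). The estimate ran from -0.69 to -0.56 when samples were left out in turn, and fell short of 1.5-fold or of p without TUMOUR STD 10 or 12 or CHEMO STD 3 or 7 (-0.58 to -0.56), with CHEMO STD 1 and 2 kept as separate libraries (-0.58) and without the samples high in a marker list (-0.54). The mean log2 CPM of the smooth muscle markers moved with the row (r = 0.69 over 19 samples with group means removed). That of the muscle markers (r = 0.69) and of the fast fibre markers (r = 0.63) did so too. Summed, the smooth muscle markers were at 3313 to 7141 CPM in TUMOUR STD (median 3608) and 2984 to 5815 CPM in CHEMO STD (median 3740). Of 5 smooth muscle markers tested, 3 (Tagln, Myh11 and Acta2) were called lower in the same comparison, and their part in the result was not tested.

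AABR07030527.1, the other row without overlap, had 264 counts in all. TUMOUR STD gave 0.869, 1.49, 0.971, 0.324 and 1.42 CPM, and CHEMO STD 1.68 to 3.93 (median 2.02). The low level rests on 2 to 74 counts per library, and 2 of 5, 5 of 7 and 3 of 8 libraries reached 10 counts in TUMOUR STD, CHEMO STD and CHEMO FO. Only in CHEMO STD, where the row was high, did most libraries reach 10 counts. The count rule therefore favours its lack of overlap, which is a description. The log2 fold change was 1.12 ± 0.51 (unadjusted p = 0.0384 in edgeR), and the call was lost without TUMOUR STD 8, 10 or 11 or CHEMO STD 6 or 7 (0.91 to 1.11).

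AABR07045350.1, the second antisense row, had 354 counts. It was at 1.74, 1.49, 0.777, 3.72 and 1.60 CPM in TUMOUR STD, where the sample at 3.72 lay above most others. CHEMO STD ranged from 1.91 to 4.31 (median 3.27) and CHEMO FO from 1.75 to 4.14 (median 3.45), so that both overlapped TUMOUR STD. Its log2 fold change was 0.83 ± 0.34 (unadjusted p = 0.0246 in edgeR) and was lost as a call without TUMOUR STD 9 or 10 or CHEMO STD 4 (0.60 to 0.75) and without the samples high in a marker list (0.69). Within groups the row ran against Dsp (r = -0.67), which was highest in TUMOUR STD 10, where the row was lowest, and the part of that sample's other cells was not tested. Which gene it runs opposite to was not looked up, since its name is that of a clone.

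Rfwd3, a ubiquitin ligase of the DNA damage response, is a lincRNA row in the count table. TUMOUR STD gave 5.73, 2.78, 2.23, 1.94 and 3.02 CPM, and CHEMO STD 0.612 to 2.62 (median 1.82). TUMOUR STD 8 was far above the rest. CHEMO STD was lower by a log2 fold change of -0.75 ± 0.35 (unadjusted p = 0.0433 in edgeR). Without TUMOUR STD 8 it was -0.44, and the call was also lost without TUMOUR STD 9 or 12 or CHEMO STD 3, 4 or 6. It was lost too by DESeq2, with library totals, with CHEMO STD 1 and 2 kept as separate libraries and with only the 2 conditions in the fit (-0.75 to -0.67, unadjusted p = 0.054 to 0.0591 over these fits of all genes).

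AABR07068316.1, a processed_transcript row with 45356 counts, was called lower in CHEMO STD and in CHEMO FO against TUMOUR STD. It was at 259, 346, 700, 340 and 613 CPM in TUMOUR STD. CHEMO STD ranged from 206 to 467 (median 268) and CHEMO FO from 139 to 445 (median 298). TUMOUR STD 10 and 12 were high, and the other TUMOUR STD samples lay within the ranges of the chemotherapy groups. The log2 fold changes were -0.59 ± 0.28 (unadjusted p = 0.0458) and -0.63 ± 0.26 (unadjusted p = 0.0225 in edgeR). The mean log2 CPM of the tendon markers moved with this row (r = 0.89 over 19 samples with group means removed). That of the muscle (r = 0.83), smooth muscle (0.58), fast fibre (0.53) and myelin markers (0.52) did so too, while the leukocyte (0.05) and macrophage markers (0.07) hardly did. Summed, the tendon markers were highest in TUMOUR STD 10, at 1484 CPM against a group median of 624. Of 6 tested, Fmod and Thbs4 were called lower in CHEMO STD, and Fmod and Tnmd in CHEMO FO, against TUMOUR STD, and their part in the result was not tested. The first call was kept only without TUMOUR STD 8, 9 or 11 or CHEMO STD 3, and was lost in the other 14 refits without 1 sample (-0.58 to -0.37). It also fell under 1.5-fold by DESeq2, with RLE factors, with library totals, with no filter and with only the 2 conditions in the fit (-0.58 to -0.54), and was -0.47 with CHEMO STD 1 and 2 kept as separate libraries. The second was lost without TUMOUR STD 10 or 12 or CHEMO FO 15 or 18 (-0.56 to -0.42). Without the samples high in a marker list the 2 values were -0.33 and -0.31, neither of them a call. CHEMO STD 1+2, with 1093 CPM of the tendon markers (group median 398), stayed in that refit.

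The diet effect (CHEMO FO versus CHEMO STD) also had 5 of the 123 rows called, or 4.07% against 1.66% of all genes tested, with 1 higher and 4 lower against a background of 0.615% higher and 1.05% lower. LOC100910854 was higher, and AABR07069454.1, AABR07070307.1, AABR07068161.1 and AABR07010777.1 were lower. There were 6 rows at an unadjusted p below 0.05 (4.88%), against 4.51% of all genes, and DESeq2 called 6, with none past its adjusted threshold. The count was 3 without CHEMO STD 6 or 7 or CHEMO FO 19. Without the samples high in a marker list, 3 of the 5 calls were kept (AABR07069454.1 at -1.39, AABR07070307.1 at -0.70 and LOC100910854 at 0.59), 2 were lost, and 2 other rows were called. The median of the 123 rows was -0.09 on the log2 scale, against -0.01 for all genes tested, and 45 rows lay above 0.

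AABR07069454.1, a lincRNA row with 267 counts, was the row with the smallest p of this comparison. It was at 2.09, 2.59, 2.91, 2.10 and 1.06 CPM in TUMOUR STD. In CHEMO STD the level was 2.07 to 4.31 (median 2.41) and in CHEMO FO 0.220 to 2.05 (median 1.06). The chemotherapy groups did not overlap, the only row of the 123 of which this was true (0.813%, against 0.0683% of all genes tested). The log2 fold change was -1.24 ± 0.34 (95% interval -1.95 to -0.54, unadjusted p = 0.00133, adjusted p = 0.974 in edgeR). The call was kept in each of the 18 refits without 1 sample, from -1.37 to -1.04. Only 2 of the 8 CHEMO FO libraries reached 10 counts, so the lower level rests on few reads. The row met the count rule mainly through the other groups, where it was higher. The rule therefore favours its lack of overlap, and the share over all genes is no like measure. Against TUMOUR STD the log2 fold change of CHEMO FO was -0.90 ± 0.35 (unadjusted p = 0.0179 in edgeR), lost as a call without TUMOUR STD 10 (-0.77).

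AABR07070307.1, a processed_transcript row with 463 counts, was lower in CHEMO FO against either other group. TUMOUR STD gave 2.61, 4.87, 4.18, 4.85 and 2.48 CPM. CHEMO STD ranged from 1.22 to 5.60 (median 4.03) and CHEMO FO from 1.27 to 3.94 (median 2.18), and the ranges overlapped. CHEMO FO had a log2 fold change of -0.78 ± 0.30 against CHEMO STD (unadjusted p = 0.0161) and -0.71 ± 0.31 against TUMOUR STD (unadjusted p = 0.0311 in edgeR). The first was called in all 18 refits without 1 sample, but not without CHEMO STD 1+2 (-0.62). The second was lost without TUMOUR STD 9, 10 or 11 or CHEMO FO 13, 15 or 18 (-0.68 to -0.58) and without the samples high in a marker list (-0.55). Its deviations also followed library depth (r = 0.47).

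LOC100910854, a lincRNA row with 853 counts, was higher in CHEMO FO against either other group. It was at 6.25, 5.07, 4.95, 7.12 and 4.61 CPM in TUMOUR STD. CHEMO STD ranged from 2.86 to 7.96 (median 5.55) and CHEMO FO from 5.56 to 10.3 (median 8.68), where 1 sample, CHEMO FO 15, was below 7 CPM. The mean rose from 5.42 ± 1.75 (SD, n = 6) to 8.38 ± 1.49 (SD, n = 8), a log2 fold change of 0.62 ± 0.19 (unadjusted p = 0.00422, adjusted p = 0.974 in edgeR). Against TUMOUR STD it was 0.59 ± 0.20 (unadjusted p = 0.00752 in edgeR). Both lie close to the fold threshold, and the first was lost as a call without CHEMO STD 5 or 6 or CHEMO FO 19 (0.51 to 0.57) and the second without TUMOUR STD 9, 10 or 12 or CHEMO FO 19 or 20 (0.54 to 0.57) or the samples high in a marker list (0.56).

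AABR07068161.1, a processed_transcript row, followed the leukocyte markers Ptprc, Rac2 and Coro1a across samples (r = 0.78 over 19 samples with group means removed). It was at 19.1, 16.7, 16.2, 18 and 18.5 CPM in TUMOUR STD. CHEMO STD 7, the sample with 145 CPM of those markers, was at 46.2 CPM, whereas the other CHEMO STD samples were at 15.4 to 22.9. CHEMO FO ranged from 12.5 to 24.1 (median 15.1). The log2 fold change of -0.59 ± 0.20 (unadjusted p = 0.00724 in edgeR) was -0.30 without CHEMO STD 7. The call was also lost without CHEMO FO 13, 14, 18, 19 or 20, with CHEMO STD 1 and 2 kept as separate libraries (-0.51), with no filter (-0.58) and without the samples high in a marker list (-0.24). Of 9 leukocyte markers listed, all 3 that were tested were called lower in CHEMO FO against CHEMO STD, and their part in the result was not tested.

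AABR07010777.1, a lincRNA row with 262 counts, reached 10 counts in 1 of the 8 CHEMO FO libraries, 5 of the 7 CHEMO STD and 4 of the 5 TUMOUR STD libraries. It was at 4, 2.69, 1.65, 2.75 and 1.42 CPM in TUMOUR STD. CHEMO STD ranged from 1.77 to 3.74 (median 2.80) and CHEMO FO from 0.182 to 3.07 (median 1.23). CHEMO FO 14 and 18, at 0.220 and 0.182 CPM, were lowest. Its log2 fold change was -0.96 ± 0.44 (unadjusted p = 0.0389 in edgeR), lost as a call without CHEMO STD 3, 4, 6 or 7 or CHEMO FO 14, 15, 17, 18 or 19 (-0.95 to -0.71), with CHEMO STD 1 and 2 kept as separate libraries (-0.88) and without the samples high in a marker list (-0.59). Within groups the row ran against the macrophage markers (r = -0.60), which were highest in CHEMO FO 18, and their part was not tested.

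**Figure D3:**
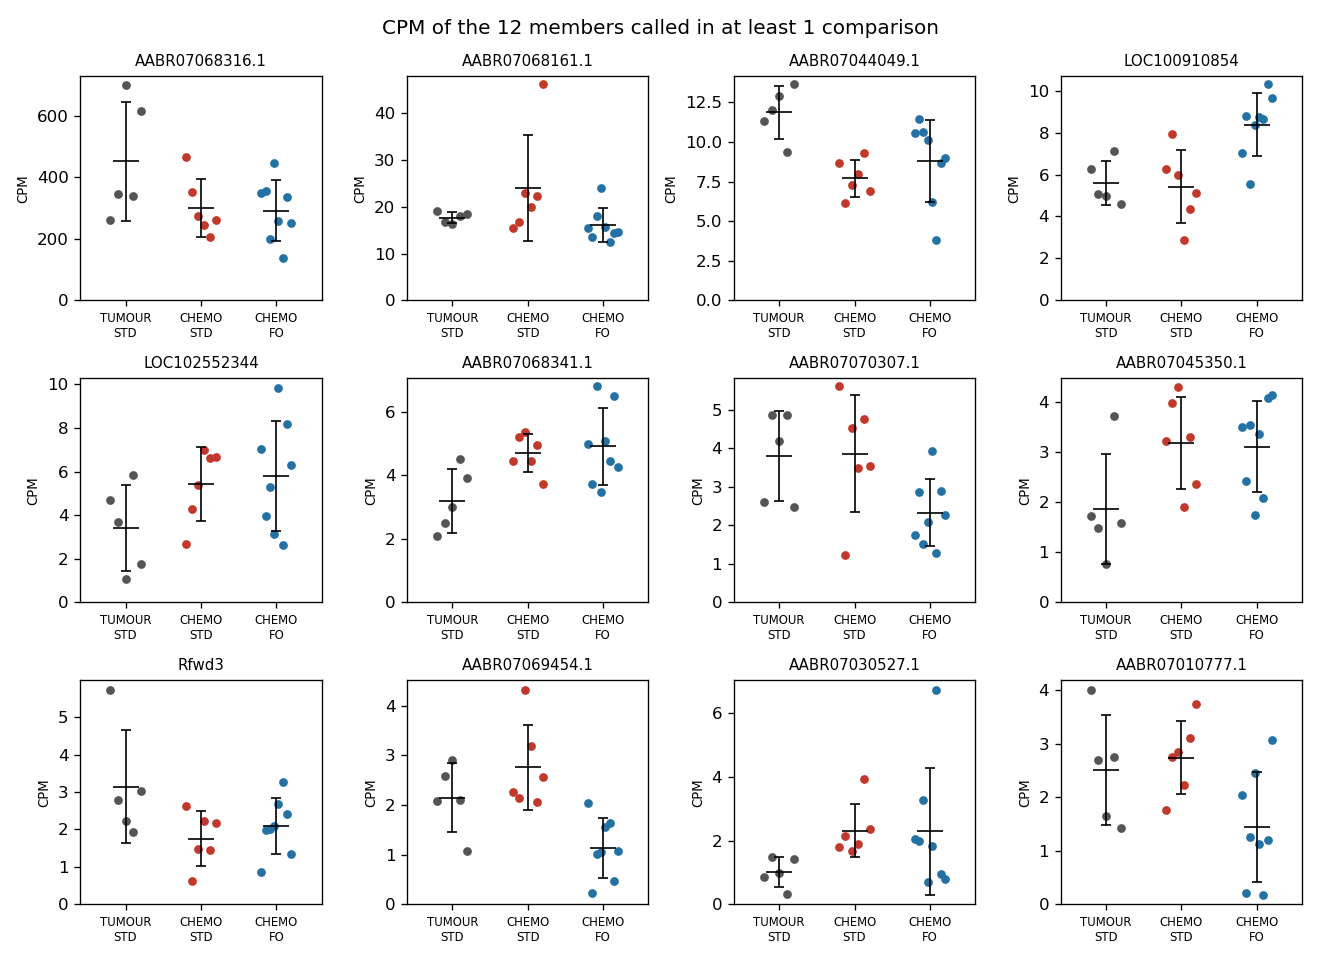
CPM in each sample (points) with the group mean and SD (bars) of the 12 rows called in at least 1 comparison, in panels with their own y axes. AABR07044049.1 does not overlap between CHEMO STD and TUMOUR STD, AABR07069454.1 does not overlap between CHEMO FO and CHEMO STD, and CHEMO STD 7 stands at 46.2 CPM in AABR07068161.1.

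Chemotherapy with fish oil against the tumour alone (CHEMO FO versus TUMOUR STD) had 8 rows called, or 6.5% against 3.6% of all genes tested, with 5 higher and 3 lower against a background of 1.09% higher and 2.51% lower. LOC100910854, AABR07068341.1, AABR07030527.1, AABR07045350.1 and LOC102552344 were higher, and AABR07069454.1, AABR07068316.1 and AABR07070307.1 were lower. There were 10 rows at an unadjusted p below 0.05 (8.13%), against 9.04% of all genes. DESeq2 called 8, with none past its adjusted threshold, which 12 of all genes passed. The count was 4 without TUMOUR STD 9 or 10 or CHEMO FO 15, and 5 without CHEMO FO 18. Without the samples high in a marker list, 2 of the 8 calls were kept (AABR07068341.1 at 0.64 and AABR07069454.1 at -0.88), 6 were lost, and 3 other rows were called. The median of the 123 rows was -0.02, against 0.00 for all genes tested. No row of the 123 was without overlap, against 0.324% of all genes. Of the 12 rows called in any comparison, 6 were called in 2 comparisons and none in 3. The comparisons share samples, and the like share over all genes was not computed. These counts are therefore a description and no result about the 123 rows.

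AABR07068341.1, a lincRNA row with 546 counts, was at 2.09, 2.49, 3.01, 4.53 and 3.90 CPM in TUMOUR STD and at 3.49 to 6.83 (median 4.72) in CHEMO FO. CHEMO STD lay at 3.74 to 5.36 (median 4.71). Against TUMOUR STD the log2 fold change was 0.62 ± 0.22 in CHEMO FO (unadjusted p = 0.0105) and 0.56 ± 0.23 in CHEMO STD (unadjusted p = 0.0259 in edgeR, under 1.5-fold). The call was lost without TUMOUR STD 8 or 9 or CHEMO FO 15 or 19 (0.53 to 0.56).

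LOC102552344 was at 4.69, 3.68, 1.07, 5.82 and 1.77 CPM in TUMOUR STD, at 2.68 to 6.99 (median 5.99) in CHEMO STD and at 2.64 to 9.85 (median 5.80) in CHEMO FO. TUMOUR STD 10 and 12 were lowest. The log2 fold change of CHEMO FO against TUMOUR STD was 0.79 ± 0.37 (unadjusted p = 0.0457 in edgeR). It was called in 7 of the 18 refits without 1 sample, those without TUMOUR STD 8 or 11, CHEMO STD 5 or 6, or CHEMO FO 14, 16 or 18, and lost in the other 11 (0.53 to 0.83). It was lost as well with library totals, with CHEMO STD 1 and 2 kept as separate libraries, with only the 2 conditions in the fit (0.76 to 0.80) and without the samples high in a marker list (0.69). Within groups it ran against the clock genes (r = -0.65) and the macrophage markers (r = -0.72), whose part was not tested. Its neighbours Ube2e2 and Ube2e1 had r of 0.20 and 0.36 with it, over 19 samples.

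AABR07030527.1 had a log2 fold change of 1.23 ± 0.48 in CHEMO FO against TUMOUR STD (unadjusted p = 0.0179 in edgeR). CHEMO FO 18 stood at 6.73 CPM and the rest of CHEMO FO at 0.698 to 3.29. The estimate was 0.67 without that sample, and the call was also lost without TUMOUR STD 11 (1.02) and without the samples high in a marker list (0.64). AABR07045350.1 was higher by 0.78 ± 0.33 (unadjusted p = 0.0272 in edgeR), lost as a call without TUMOUR STD 9, 10 or 12 or CHEMO FO 20 (0.55 to 0.74) and without the samples high in a marker list (0.66).

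**Figure D4:**
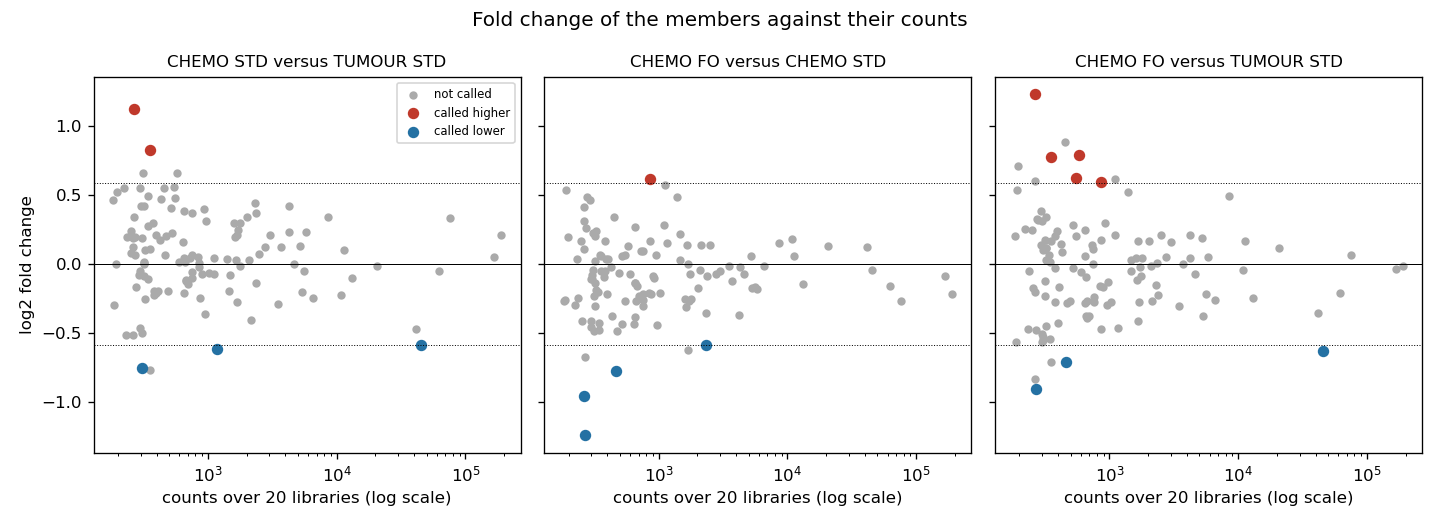
Log2 fold change (y axis) of the 123 rows against their counts over the 20 libraries (x axis, log scale) in the 3 comparisons, with called rows in colour and dotted lines at 1.5-fold. Called rows lie mostly below 1000 counts, AABR07068316.1 with 45356 counts being the one far to the right.

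The median SE of a log2 fold change was 0.32, 0.29 and 0.30 in the 3 comparisons for the 123 rows, against 0.21, 0.19 and 0.20 for all genes tested. For the chemotherapy effect it was 0.35 in the 78 rows with under 1000 counts and 0.22 in the 45 with more. The 95% interval lay within a 2-fold change either way for 82, 85 and 84 rows, and within 1.5-fold for 20, 32 and 26. The median within-group SD of log2 CPM was 0.51 for the 123 rows and 0.36 for all genes tested. Among rows with few counts the values were 0.57 for the 78 rows and 0.53 for the 3404 genes with as many counts. The rows of coding genes had a median of 0.33, and those with no RefSeq match 0.53.

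The row with most counts, AC134224.1, varied between samples of a group more than between groups. AC134224.1 was at 2689, 1791, 503, 1442 and 823 CPM in TUMOUR STD, at 990 to 2235 (median 1819) in CHEMO STD and at 905 to 2723 (median 1183) in CHEMO FO. Its log2 fold change was 0.21 ± 0.35 for the chemotherapy effect and -0.22 ± 0.31 for the diet effect, and neither was called. AC134224.3 moved with it (r = 0.98 over 19 samples with group means removed), as did AC134224.2 (r = 0.92) and Tug1 (r = 0.91). AABR07072236.1 (r = 0.89), AABR07019088.1 (0.84) and Top2b (0.82), a DNA topoisomerase, followed, and Taf1, a TFIID subunit, followed AC134224.2 (0.83). These relations were chosen after their values were seen, are descriptions, and rest on samples that share library and depth with each row. The 3 AC134224 rows carry the name of a single clone, and whether they share reads is not given in the sources used here.

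AABR07068316.1 and AABR07044388.2, both processed_transcript rows, moved with each other (r = 0.92) and opposite to that set. AABR07044388.2 was at 248, 365, 626, 230 and 427 CPM in TUMOUR STD, 204 to 411 (median 251) in CHEMO STD and 152 to 479 (median 299) in CHEMO FO. In TUMOUR STD 10 both rows were above their group means by 0.74 and 0.82 on the log2 scale, while the AC134224 rows were at -1.02. In CHEMO FO 18 they were at -0.99 and -0.88, and the AC134224 rows at 0.98. Rpph1, the RNA of ribonuclease P and no member, followed the pair (r = 0.80 and 0.87) and ran against AC134224.1 (r = -0.92) and Tug1 (r = -0.91). It ranged from 2631 to 11467 CPM and was not called in any comparison (unadjusted p = 0.0823, 0.41 and 0.268 in edgeR). Of the 123 rows, 9 (7.32%) had r above 0.5 with Rpph1 and 24 (19.5%) below -0.5, against 19.5% and 20.1% of all other genes tested. The first principal component of the rows' deviations held 22.5% of their variance, and it had an absolute r of 0.97 with that of all genes (25.9%).

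**Figure D5:**
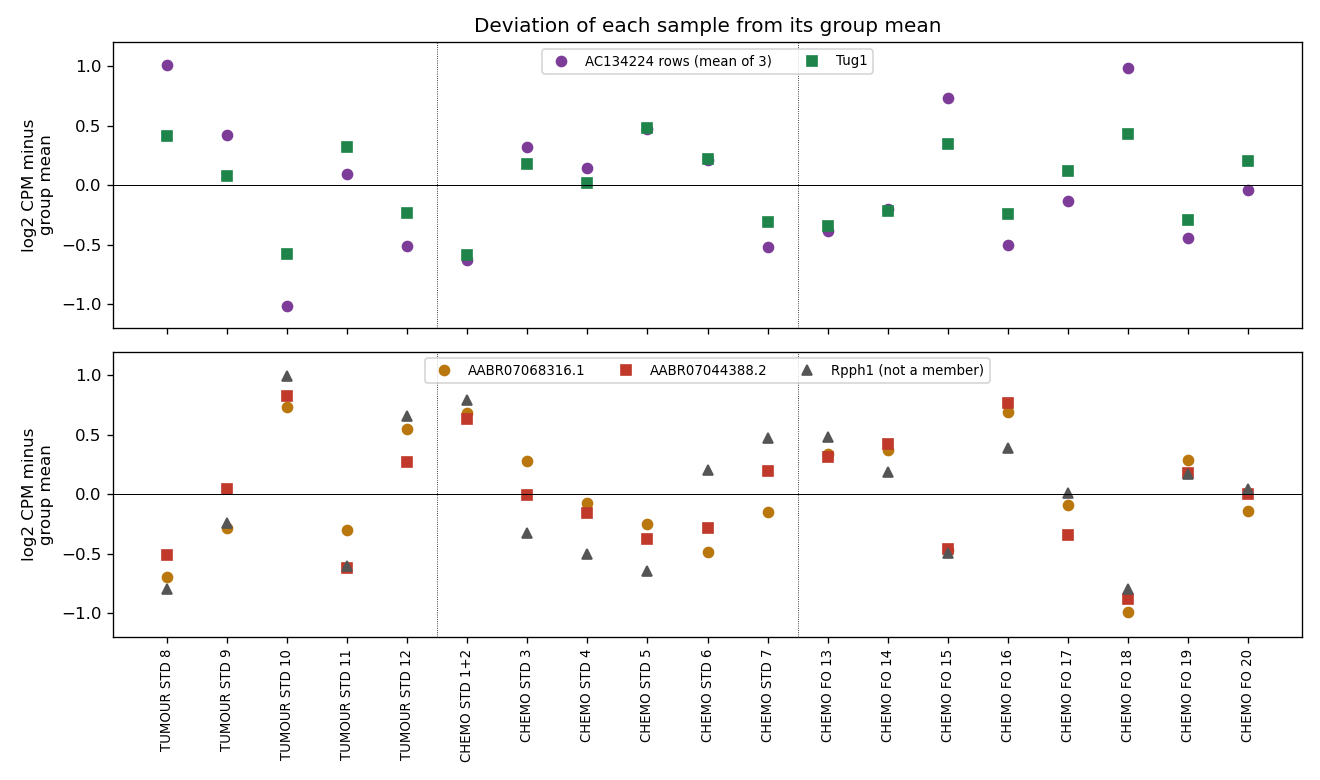
Deviation of log2 CPM from the group mean (y axis) in the 19 samples (x axis, groups parted by dotted lines). The AC134224 rows and Tug1 (top) are low in TUMOUR STD 10 and CHEMO STD 1+2, where AABR07068316.1, AABR07044388.2 and Rpph1 (bottom) are high, and the order is turned in TUMOUR STD 8 and CHEMO FO 18.

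A further set followed the fast fibre markers. Bves, a membrane protein of striated muscle, had r = 0.92 with them, AABR07022113.1 0.83 and AABR07025277.1 0.82. The same rows ran against the macrophage markers (r = -0.79, -0.71 and -0.74), which were highest in CHEMO FO 18. The part of either list was not tested. Bves was at 10.6 CPM in CHEMO FO 18 and at 31.9 to 48.1 in all other samples. The r between Bves and AABR07025277.1 was 0.81, and 0.30 with the sample that bears on it most left out. Bves did not differ beyond its error between groups, with a log2 fold change of 0.00 ± 0.24 for the chemotherapy effect (95% interval -0.49 to 0.49) and -0.08 ± 0.21 for the diet effect (-0.52 to 0.37).

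Lists of coding partners of long noncoding RNAs were set beside the shares called over all genes, 2.38%, 1.66% and 3.6% in the order of the 3 comparisons (6.5%, 4.51% and 9.04% at an unadjusted p below 0.05). None of 8 paraspeckle proteins, 10 nonsense-mediated decay factors or 4 box C/D snoRNP proteins was called in any comparison by edgeR or by DESeq2. At an unadjusted p below 0.05 the counts over the 3 comparisons were 0, 0 and 0 for the paraspeckle list, 1, 0 and 1 for the decay list and 0, 1 and 1 for the snoRNP list. Of 14 nuclear RNA exosome genes, Dis3, a ribonuclease subunit, was called higher for the chemotherapy effect (log2 fold change 0.59 ± 0.20, unadjusted p = 0.00817, adjusted p = 0.719 in edgeR). The median of that list was 0.20, with 12 of 14 genes above 0, against a median of -0.00 for all genes tested. In CHEMO FO versus TUMOUR STD, which shares the TUMOUR STD samples, the list's median was 0.18 with 13 genes above 0. For the diet effect it was -0.01 with 7 above 0. Of 7 coding genes of imprinted loci, Igf2, a fetal growth factor, was called lower in CHEMO FO against TUMOUR STD (-0.64 ± 0.22, unadjusted p = 0.00897, adjusted p = 0.486 in edgeR). The median of the imprinted list was -0.17, -0.07 and -0.27 over the 3 comparisons, with 1, 2 and 1 of the 7 genes above 0. At an unadjusted p below 0.05 in edgeR its counts were 1, 1 and 2.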

How the data were processed

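RNA of whole gastrocnemius (TruSeq Stranded Total RNA, Ribo-Zero) was sequenced on an Illumina NextSeq. The authors aligned reads to Rnor 6 with TopHat2 2.0.10 after Trim Galore 0.4.1, and deposited raw counts per gene of the Ensembl annotation with biotypes. How strand and multi-mapped reads were handled is not stated in the sources read. Antisense, overlapping and multicopy rows are therefore uncertain. Myh4 was deposited rounded in TUMOUR STD 9 and 10. Rows without a gene name (0.102% to 0.272% of counts) were left out.

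From the counts, edgeR 4.0.16 (R 4.3.3) was run with TMM factors, filterByExpr (minimum count 10, minimum total 15) and the quasi-likelihood test, over 19 samples in 3 groups, with Benjamini-Hochberg adjustment over the 11716 gene rows that passed. Calls followed the study's thresholds, an unadjusted p below 0.05 and 1.5-fold. SEs were computed from the fold change and F statistic. CPM used TMM library sizes, and log2 CPM a prior count of 2. The steps were tested on simulated data. DESeq2 1.42.0, other scalings, filters and thresholds, and samples left out in turn were alternatives. Leaving out the 3 samples high in a marker list was chosen after seeing the data, and other samples high in some list stayed in. Library depth was 3020821 to 10857477 counts, and counting error is largest in the rows with few counts.

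The members and gene lists were chosen with earlier results of these data known. Rows named in the text were the called members (up to 6 in each direction by p), members called in more than 1 comparison, members on fixed lists of known lncRNAs, and the 5 rows on either side of the rule. RefSeq rows and covarying rows were added after their values were seen. RefSeq classes and promoter windows are from GRCr8. Marker lists also covered smooth muscle, slow fibres, adipocytes, immediate early and clock genes.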

Additional observations from a re-analysis of the deposited data

Results flagged for a closer look

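In 5 of the 39 groups of named rows, 1 sample lay far from the others by Dixon's criterion. Chance alone gives about 1 in 20 groups where values are normally distributed. The criterion was applied to CPM without a log scale, and all 5 samples lay on the high side, so that rate need not hold here. AABR07030527.1 was at 3.93 CPM in CHEMO STD 6, with the rest of that group at 1.68 to 2.36, and at 6.73 CPM in CHEMO FO 18, with the rest at 0.698 to 3.29. AABR07068161.1 was at 46.2 CPM in CHEMO STD 7 (others 15.4 to 22.9), the sample with the highest sum of leukocyte markers, and at 24.1 CPM in CHEMO FO 16 (others 12.5 to 18), the CHEMO FO sample highest in that sum. Rfwd3 was at 5.73 CPM in TUMOUR STD 8, with the rest of TUMOUR STD at 1.94 to 3.02.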

How the results depend on the processing

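No paired analysis was possible because the groups share no replicate numbers. For CHEMO STD versus TUMOUR STD, where 5 of the 123 rows were called, the count was 3 by DESeq2, 2 with CHEMO STD 1 and 2 kept as separate libraries, 10 with both left out, 3 with only the 2 conditions in the fit, 1 at a 2-fold threshold, and 1 to 9 when samples were left out in turn. For CHEMO FO versus CHEMO STD it was 3 with separate libraries, 1 at 2-fold and 3 to 6 with samples left out. For CHEMO FO versus TUMOUR STD it was 1 at 2-fold, 5 without the 3 samples high in a marker list, and 4 to 10 with samples left out. The cause was not tested. The sign of the Tug1 estimate turned: 0.0072 for CHEMO FO versus CHEMO STD with separate libraries (-0.14 to 0.028 with samples left out), -0.14 for CHEMO FO versus TUMOUR STD without the 3 samples (-0.083 to 0.17 with samples left out), and -0.0084 to 0.24 for CHEMO STD versus TUMOUR STD. Over all genes, calls numbered 279, 195 and 422 in the order chemotherapy effect, diet effect and CHEMO FO versus TUMOUR STD. They became 971, 722 and 1116 with no filter, 64, 58 and 112 at 2-fold, and 762, 528 and 1059 without a fold threshold. DESeq2 gave 314 for the diet effect. With CHEMO STD 1 and 2 left out the chemotherapy effect gave 603 over all genes, beside 10 of the 123 rows. Without the 3 samples it gave 170, beside 4 of the 123 rows, and the last comparison 214, beside 5. The rule kept 118 rows when applied to 19 samples and 127 by mean count. The 5 rows with exactly 10 libraries, AABR07030527.1 and AABR07010777.1 among them, are those lost with 19 samples.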
